A study of Oryctolagus cuniculus with 12 samples.

Results

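Creatine kinase and the creatine transporter were examined in ventricles of fetal rabbit hearts through the 3 array probes whose current gene symbol is CKM, CKB or SLC6A8. These are 3 of 591 genes with a named probe in a table of 43603 probes. Each of the 3 had 1 probe, so no second probe was at hand to check any of them. The probes were taken by gene name, and the genes were picked with earlier results of these data known. The samples were 6 ventricles labelled IUGR, for intrauterine growth restriction, a state of poor growth before birth, and 6 control ventricles. Sample titles call the IUGR group treatment and the other group control, and the labels number them as 6 pairs of 1 IUGR and 1 control heart. The labels used here do not state the procedure behind the restriction, the strain, the gestational age or what a pair shares, nor whether each heart came from its own litter. P-values therefore measure the spread between these pairs.

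In heart muscle, creatine kinase moves a phosphate group between ATP and creatine, so that phosphocreatine can hold and carry energy from the mitochondria to the filaments and ion pumps. CKM encodes the muscle subunit and CKB the brain-type subunit of the cytosolic enzyme. The subunits join as MM, MB or BB dimers, and hearts early in development rely more on the B subunit than adult hearts do. SLC6A8 is the membrane transporter that takes up creatine from the blood, on which heart muscle depends because it makes little creatine itself. Mitochondrial creatine kinase, encoded by CKMT2 and CKMT1 genes, and the creatine-synthesis enzymes GATM and GAMT have no probe with their symbol and were not analysed here.

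Each sample was measured on 1 Agilent array of rabbit transcripts, a single-colour array labelled with the dye Cy3. Signals are on the log2 scale, on which a difference of 1 is a doubling, and they ran from 1.35 to 15.83 over all probes and arrays. Across probes, arrays correlated with each other at 0.957 to 0.978. Probes differ in how they bind and label, so no level of 1 gene is set against that of another here. Of the heart muscle markers listed, 2 of 17 had a probe, and both were bright: MYH6, the alpha myosin heavy chain, had a level at percentile 99.2 of all probes, and RYR2, the calcium release channel, at percentile 97.4. Among the 17 probes of the genes reported here, in 34 groups of 6 arrays, 0 groups held an array set apart by Dixon's test at its 95% critical value.

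SLC6A8 had the widest difference between the groups among the 3 genes, but it did not pass the test. In the controls its signal had a lowest value of 7.91, a median of 8.01 and a highest value of 8.70. In the IUGR hearts the lowest value was 8.12, the median 8.58 and the highest 9.15. The groups overlapped. Controls 1, 2, 5 and 6 lay below every IUGR heart, while controls 3 and 4, at 8.69 and 8.70, lay above 4 of the 6 IUGR hearts. IUGR hearts 2 and 3, at 9.05 and 9.15, were above every control.

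Pair by pair, the IUGR minus control difference of SLC6A8 was 0.14 in pair 1, 1.14 in pair 2, 0.45 in pair 3, -0.40 in pair 4, 0.62 in pair 5 and 0.54 in pair 6. The transporter signal was thus higher in the IUGR heart in 5 of 6 pairs, with pair 4 the exception. Of all probes, 11.7% were higher in at least 5 of 6 pairs. The mean difference was 0.42 ± 0.52 log2 (SD, n = 6 pairs), a 1.33-fold difference between a level of 8.63 ± 0.41 and one of 8.21 ± 0.38 (SD, n = 6 each). Its 95% interval in limma, from -0.05 to 0.88, held no difference as well as a 1.84-fold higher signal. The limma adjusted p over all probes was 0.982 (unadjusted p = 0.0732), and the exact two-sided test over the 64 sign changes of the 6 pairs gave p = 0.0938, where 0.03125 is the smallest p possible. Without pair 2 the mean difference was 0.27.

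**Figure D1:**
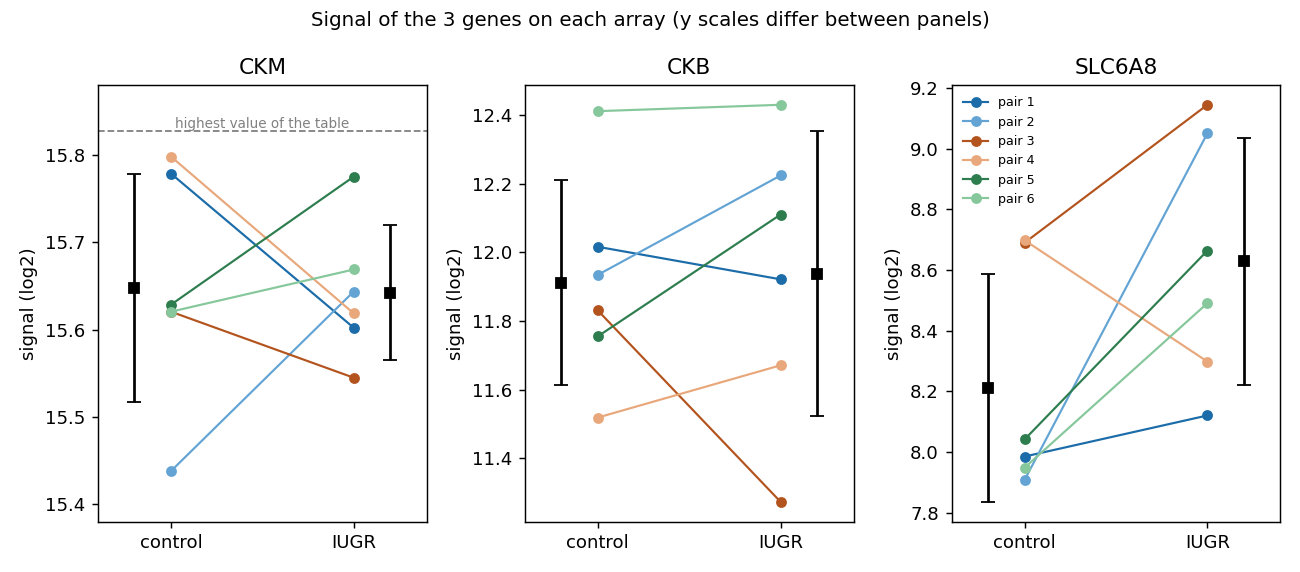
Log2 signal of CKM, CKB and SLC6A8 on each of the 12 arrays, with a line joining the control and the IUGR heart of a pair; black squares and bars are the group mean ± SD (n = 6). For SLC6A8 the line ascends in 5 of 6 pairs, and for CKM in 3 of 6; the dashed line in the CKM panel is the highest value of the table, 15.83.

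The size of the SLC6A8 difference can be read against the other probes. Over all probes, 13.1% had a mean difference at least as large in either direction. Of these, 84.0% were dimmer than the median probe. Among the 4360 probes in the same decile of signal levels, the difference of SLC6A8 stood at percentile 98.0 by size. The spread of its pair differences stood at percentile 86.6 of the same probes, whose median SD was 0.29. The pair differences of SLC6A8 therefore varied more than those of most probes of its level. Its 12 values spanned 1.24 log2, or 2.36-fold.

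CKM, the muscle subunit, had nearly the same mean in both groups. The control signal had a lowest value of 15.44, a median of 15.62 and a highest value of 15.80, and the IUGR signal a lowest value of 15.54, a median of 15.63 and a highest value of 15.78. The IUGR values lay wholly within the span of the controls. The pair differences were -0.18, 0.21, -0.08, -0.18, 0.15 and 0.05 in pairs 1 to 6, so 3 pairs went each way. The mean difference was -0.0052 ± 0.16 (SD, n = 6 pairs), with a 95% interval in limma from -0.25 to 0.24, or 0.838-fold to 1.18-fold (limma adjusted p = 0.998, exact two-sided p = 0.938). Its sign turned without pair 1, 3 or 4.

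How far CKM could have differed was limited by the scale. On its arrays the CKM probe was between the 9th and the 173rd brightest of 43603 probes. The mean signal was 15.83 at rank 1, 15.61 at rank 100 and 15.37 at rank 200, so the 200 brightest probes share less than 0.5 log2. The control mean of CKM lay 0.18 log2 below the highest value of the table, which leaves room for a 1.13-fold higher value at most. A higher CKM signal in IUGR beyond that size could not have been seen, although the upper end of its interval lies above it, and the low spread of CKM is not a measure of how stable the transcript was. Whether a lower level would have shown in full on this part of the scale was not tested.

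**Figure D2:**
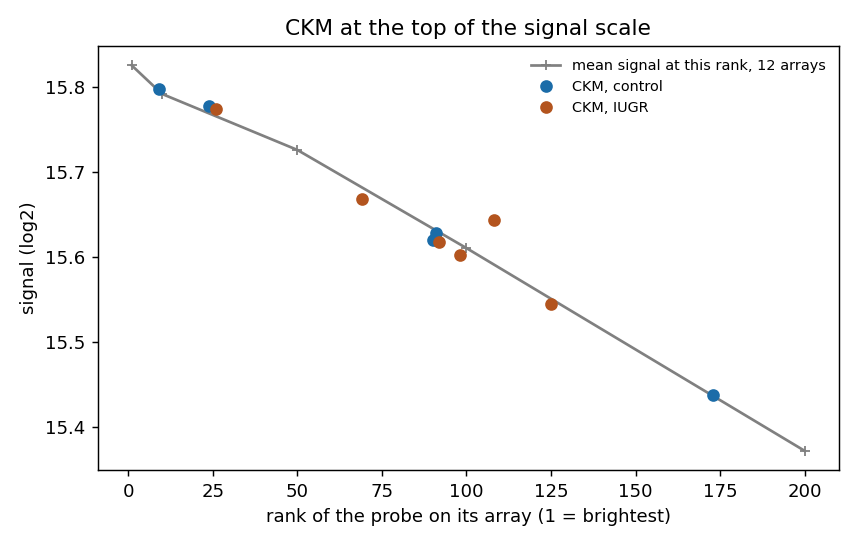
Log2 signal of CKM against the rank of its probe on the same array (1 is the brightest), for 6 control and 6 IUGR arrays, with the mean signal of all 12 arrays at ranks 1, 10, 50, 100 and 200 joined by a line. The CKM points lie between ranks 9 and 173, and both groups are spread along the line. Sorted values differed by at most 0.13 between arrays at any rank, so any probe would lie near that line.

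CKB, the brain-type subunit, was not held at the top of the scale and still had nearly equal group means. The control signal had a lowest value of 11.52, a median of 11.88 and a highest value of 12.41. The IUGR signal had a lowest value of 11.27, a median of 12.02 and a highest value of 12.43. The groups overlapped over almost their whole span, and IUGR heart 3 held the lowest and IUGR heart 6 the highest value of all 12. The pair differences were -0.09 in pair 1, 0.29 in pair 2, -0.56 in pair 3, 0.15 in pair 4, 0.35 in pair 5 and 0.02 in pair 6. CKB was thus higher in the IUGR heart in 4 of 6 pairs.

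The mean difference of CKB was 0.027 ± 0.33 (SD, n = 6 pairs), with a 95% interval in limma from -0.31 to 0.37, or 0.805-fold to 1.29-fold (limma adjusted p = 0.992, exact two-sided p = 0.875). A difference beyond those bounds would lie outside this interval, and smaller ones in either direction were not resolved with 6 pairs. The value depended on single pairs: it was 0.14 without pair 3, 0.0022 without pair 4, -0.025 without pair 2 and -0.038 without pair 5. CKB also varied between pairs, and whether hearts of a pair were alike in it was not tested. The mean of the 2 hearts of a pair ran from 11.55 in pair 3 to 12.42 in pair 6, with an SD over pairs of 0.32, which is close to the SD of the differences within pairs.

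Of the 3 genes, 0 passed the adjusted threshold of 0.05 in limma, and so did 0% of all probes. At an unadjusted p under 0.05 there were 0 of the 3 genes, against 3.58% of all probes. With an intensity trend and robust prior in limma, SLC6A8 had an unadjusted p of 0.0351 and a 95% interval from 0.036 to 0.80, with an adjusted p of 0.976. No gene of the 3 had groups that did not overlap, which 0.0505% of all probes had, and none had 1 sign in all 6 pairs, which 2.25% had. A p that misses the threshold does not show that the levels were equal. The intervals of SLC6A8 and CKB give the sizes of difference in signal that were not resolved, while that of CKM comes from a probe at the top of the scale and bounds no difference in transcript.

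Arrays of pairs 1 and 2, of pairs 3 and 4 and of pairs 5 and 6 resembled each other. After group means were removed, IUGR and control arrays from different pairs of the same set correlated at 0.028 to 0.117 across probes, above 0 in 6 of 6 cases, against 4 of 24 cases between sets. The labels name neither a batch nor these sets, and each set holds both groups equally. As the sets were drawn from these same arrays, the counts describe them and do not test them. Within these sets SLC6A8 differed by 0.64 in pairs 1 and 2, by 0.027 in pairs 3 and 4 and by 0.58 in pairs 5 and 6. CKB differed by 0.10, -0.20 and 0.19 in the same order, and CKM by 0.015, -0.13 and 0.10. All 3 genes had their lowest mean difference in pairs 3 and 4, where SLC6A8 differed by 0.45 in pair 3 and -0.40 in pair 4. This was not particular to them. Of the transfer genes described below, MYH6, VDAC1, VDAC2 and VDAC3 were also lowest there, while SLC25A4 was highest, at 0.41. The share of all probes that were lowest in pairs 3 and 4 was not counted. Whether the set of pairs 3 and 4 differs from the others was not tested.

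The pair differences of the muscle kinase and the transporter ran alike. Both were low in pairs 4 and 1, followed by pairs 3, 6 and 5, and were highest in pair 2, but for CKM pairs 1 and 4 differed by only 0.0031 log2, at the top of the scale. Pearson's r over the 6 pairs was 0.89 (exact permutation p = 0.0042, adjusted p = 0.0125 over the 3 relations between the genes) and Spearman's rho was 1.00 (exact permutation p = 0.0028, the smallest that 6 pairs can give, adjusted p = 0.0083). Without pairs 2 and 4, the farthest from the median of CKM, r was 0.93 over 4 pairs. Without pair 2 alone r was 0.82, with an exact permutation p of 0.0583 over 5 pairs, and with differences on the linear scale it was 0.84. The relations between the genes were added after the values were seen, so their p-values are descriptive. These p-values also treat the 6 pairs as exchangeable, which the resembling sets call into question. With orders exchanged only within the sets of pairs, 8 orders are possible, the smallest p is 0.125, and the exact permutation p of r was 0.125, so the relation did not pass that test. Each set holds only 2 pairs, too few for an r of its own.

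That relation was seen in the differences and not in the levels. Over the 12 arrays, which are not independent because they are paired, r between CKM and SLC6A8 was 0.16, with -0.13 over the 6 IUGR arrays and 0.42 over the 6 controls. Among all other probes, 0.78% followed SLC6A8 over the pairs with an r at least as high as that of CKM. Counting either sign, 1.64% had an r as large. The extreme pairs were not particular to CKM, as MYH6 also had its lowest difference in pair 4 (-0.34) and its highest in pair 2 (0.89). The CKM differences lie within 0.21 log2 of 0, in the compressed top of the scale. CKM with CKB gave an r of 0.53 (exact permutation p = 0.285, adjusted p = 0.427) and a rho of 0.54 (exact permutation p = 0.297, adjusted p = 0.297), with 0.67 without pairs 2 and 4. CKB with SLC6A8 gave an r of 0.20 (exact permutation p = 0.685, adjusted p = 0.685) and a rho of 0.54 (exact permutation p = 0.297, adjusted p = 0.297), with 0.42 without pairs 3 and 5. In pairs 1 and 3 SLC6A8 was higher and CKB lower in the IUGR heart, and in pair 4 the reverse. CKM also went against SLC6A8 in sign in pairs 1 and 3, where CKM was lower in the IUGR heart.

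**Figure D3:**
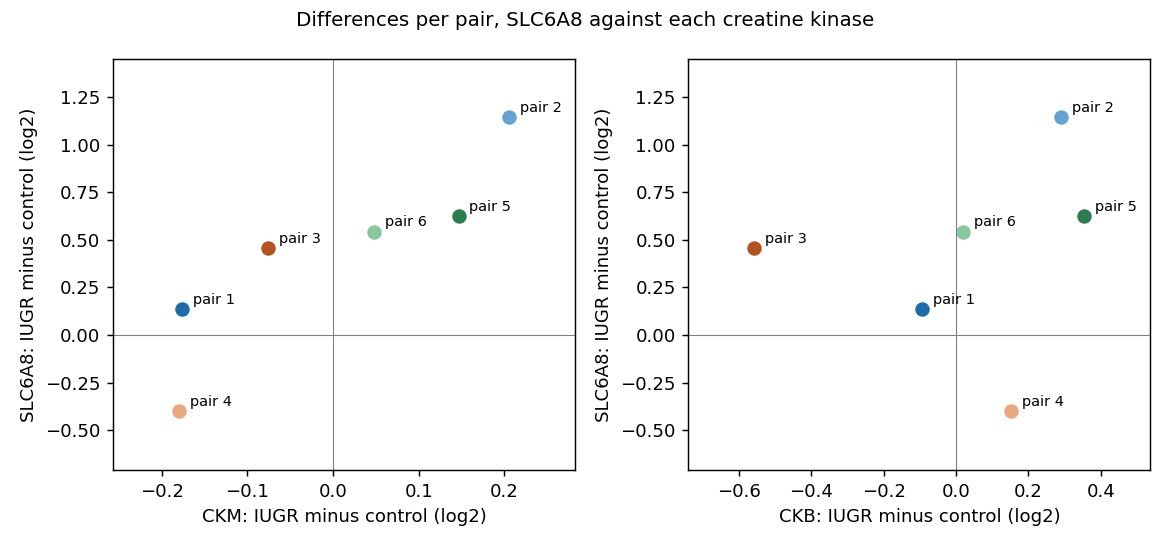
IUGR minus control difference of SLC6A8 in each of the 6 pairs (log2, vertical axis) against that of CKM (left) and CKB (right). The 6 points ascend in the CKM panel (r = 0.89), where pairs 1 and 4 lie nearly at the same CKM value, while the points of the CKB panel follow no such order (r = 0.20); the horizontal axes differ in span.

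Other genes of the phosphate transfer route had 5 measured genes in the list used here, so that 8 of its 29 genes were measured with the 3 above. Of these 8, 0 passed the adjusted test in either direction and 0 had an unadjusted p under 0.05 in limma. Their median difference was 0.06, against 0.01 over all probes. SLC25A4, the carrier that exchanges ADP and ATP across the inner mitochondrial membrane, differed by 0.13 ± 0.37 (SD, n = 6 pairs) with its brightest probe and by 0.01 to 0.15 over its 5 probes. The array annotation lists those probes as SLC25A5, and their transcript accession now belongs to SLC25A4. Their values, 15.25 to 15.83, meet the same ceiling as CKM.

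The outer membrane channels, through which nucleotides and creatine compounds leave the mitochondrion, had small mean differences. VDAC1 differed by 0.02 ± 0.21 with its brightest probe and by up to 0.11 over 5 probes, VDAC2 by 0.09 ± 0.23, and VDAC3 by 0.04 ± 0.23. At the using end, MYH6, the myosin that splits ATP in the filaments, differed by 0.21 ± 0.42 and was higher in the IUGR heart in 5 of 6 pairs. Its pair 4 difference was -0.34 and its pair 2 difference 0.89, the same extreme pairs as for SLC6A8. SLC25A4 was in the opposite order there, with 0.53 in pair 4 and -0.37 in pair 2.

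**Figure D4:**
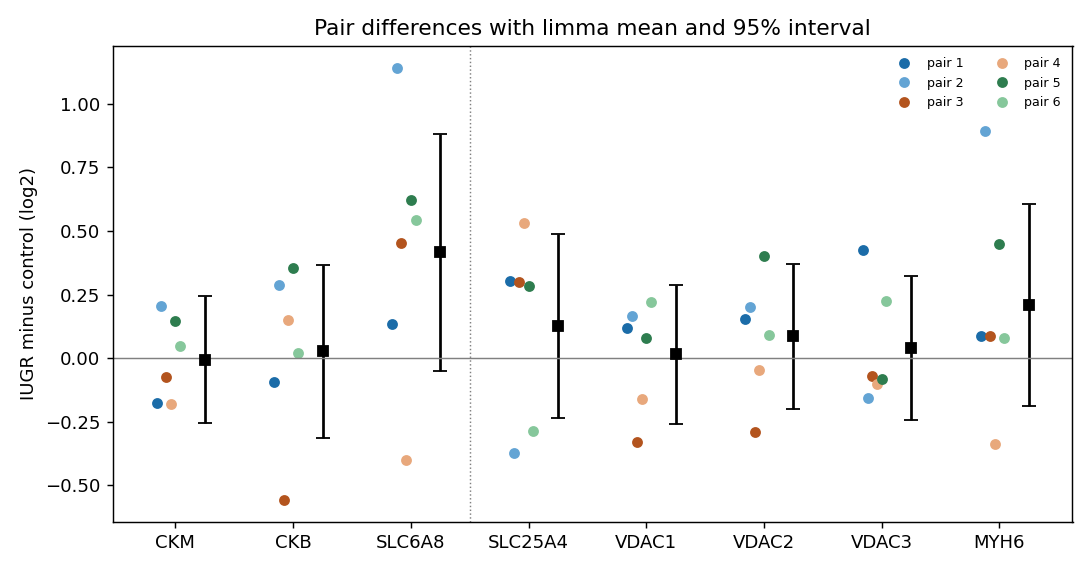
IUGR minus control difference (log2) of the 8 measured genes of creatine and nucleotide transfer, with the 3 genes described here left of the dotted line. Coloured points are the 6 pairs and black squares with bars are the mean and 95% interval from limma; each of the 8 intervals includes 0.

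The genes whose signal was most like that of each gene over the 12 arrays were named from 557 other genes with a symbol, each by its brightest probe. They were chosen for their likeness, so no test is given, and the arrays share pairs. For SLC6A8 these were VLDLR, a lipoprotein receptor (r = 0.85, and 0.82 to 0.85 over its 4 probes), CEL, a lipase (r = 0.83, at a low mean level of 3.05), and KCNIP2, a partner subunit of the channel for the transient outward current (r = 0.81, and 0.80 to 0.84 over its 5 probes). Within pairs, after each pair mean was subtracted, the same measure was 0.94 for VLDLR, 0.78 for CEL and 0.89 for KCNIP2. It keeps the group difference, so it is not the r of the pair differences given above. VLDLR differed between the groups by 0.27 ± 0.27 and was higher in IUGR in 5 of 6 pairs, and KCNIP2 by 0.55 ± 0.57 in 4 of 6 (limma adjusted p = 0.982 for both).

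For CKB the most alike genes were SLC29A2, a nucleoside transporter (r = 0.86), CCT7, a chaperonin subunit (r = 0.80), and CCNE1, a cyclin (r = 0.80). Within pairs the same measure was 0.64 for SLC29A2, 0.43 for CCT7 and 0.42 for CCNE1. For CKM they were SORL1, a sorting receptor (r = 0.76), BSG, a partner protein of lactate transporters (r = 0.71), and CLU, a secreted chaperone (r = 0.68), and within pairs it was 0.71, 0.65 and 0.66. SORL1 was dim, at a mean of 3.86.

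Whole ventricle holds several cell types, and in such tissue fewer cells of a type and less RNA per cell cannot be told apart. Markers of other cells were summed on the linear scale over the brightest probe of each measured gene and are given as log2. The smooth muscle markers, 2 of 6 measured, ran from 8.91 to 9.45 in IUGR and from 8.28 to 9.28 in control hearts, and were higher in the IUGR heart in 5 of 6 pairs. Of them TAGLN made up most of the sum, with a difference of 0.50, and MYH11 was dim, with means of 2.64 and 3.19 and a higher value in 1 of 6 pairs. The mean of both genes differed by -0.027. The red blood cell markers, 2 of 9, ran from 14.62 to 15.58 and from 13.93 to 15.11, higher in 5 of 6 pairs. Of them HBA differed by 0.41 and was higher in 6 of 6 pairs, while BPGM differed by 0.14 and was higher in 4 of 6. Over all probes, 2.25% had 1 sign in all 6 pairs. The heart muscle markers, 2 of 17, ran from 15.02 to 15.49 and from 14.88 to 15.32, higher in 5 of 6 pairs. That sum is mostly MYH6, while RYR2 differed by -0.13 and was higher in 1 of 6 pairs.

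The endothelial markers, 3 of 7, ran from 6.40 to 6.94 in IUGR and from 6.00 to 9.91 in control hearts, higher in 5 of 6 pairs but with a mean difference of -0.094. KDR was higher in 6, VWF in 4 and SELE in 3 of 6 pairs, and SELE differed by -5.02 in pair 2. The liver markers, 5 of 9, ran from 5.97 to 10.30 and from 7.70 to 11.84, and were higher in 1 of 6 pairs. The atrial markers, 3 of 5, ran from 10.19 to 15.81 and from 9.88 to 12.77, higher in 3 of 6 pairs. The skeletal muscle markers, 4 of 11, ran from 14.91 to 15.24 and from 14.81 to 15.18, higher in 4 of 6 pairs. The fibroblast list had only COL1A2 (5.51 to 6.20 against 4.91 to 6.91, higher in 4 of 6 pairs), and the list for neurons and glia only S100B (5.22 to 6.89 against 5.39 to 6.74, higher in 3 of 6). The measured marker genes of all lists had mean differences of the same sign as SLC6A8, except RYR2, MYH11, TNNI2 and the 5 liver genes. The sign alone says little. S100B differed by only 0.022, ACTN3 and VWF were dim (percentiles 27.8 and 29.3), and SELE differed by -5.02 to 3.50 between pairs. The share of all probes with that sign was not counted. None of the marker genes passed the adjusted test in limma, and their part in the SLC6A8 difference was not tested.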

How the data were processed

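The authors deposited log2 signals for 12 single-colour arrays, made from 500 ng of RNA per sample with RNA integrity numbers from 9.3 to 9.9, per the labels' protocols. The submitters' processing notes name RMA without a version. The log2 base was inferred from the highest value, which equals 58146 on a linear scale. Sorted values differed by at most 0.13 between arrays at any rank, so a shift common to most probes would not show. The background method and any filter are unnamed in the labels. Flags for detection or saturation were not used.

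Values were used as deposited, without a filter. Symbols were updated through transcript accessions to the RefSeq genes of mOryCun1.1, and no coordinates are given because the array's build is not named. Tests used limma 3.58.1 (R 4.3.3), with the pair as a block and Benjamini-Hochberg adjustment over 43603 probes. The design text calls the samples paired, and deviations from group means correlated at 0.129 to 0.254 in all 6 pairs. The fit was tested on simulated data. Exact tests used Python 3.11.15. The members, gene lists and rules were chosen with earlier results of these data known. The relations between the genes and their alternatives were added after the values were seen. Named genes are the members, the measured transfer genes and the 3 genes most alike to each member. The number of pairs limits precision.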

Additional observations from a re-analysis of the deposited data

How the results depend on the processing

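In limma, SLC6A8, CKM and CKB did not pass the adjusted threshold under any of 12 alternatives (adjusted p from 0.897 to 1.00). Without the replicate block the differences were the same and the adjusted p was 1.00 for each gene. The mean difference of SLC6A8 stayed above 0, from 0.27 without pair 2 to 0.58 without pair 4 (unadjusted p from 0.0139 to 0.187 over all alternatives, 0.0351 for the robust fit with an intensity trend). When 1 pair was left out, that of CKM ran from -0.047 to 0.030 and that of CKB from -0.038 to 0.14. CKM turned to 0.029 without pair 1, 0.0089 without pair 3 and 0.030 without pair 4, and CKB to -0.025 without pair 2 and -0.038 without pair 5. With 5 pairs the exact test cannot go below 0.0625. Other scalings gave 0.42 for SLC6A8, -0.010 to -0.0045 for CKM and 0.026 to 0.029 for CKB. As each gene has 1 probe, averaging probes changed nothing. The correlation of the pair differences ran from 0.82 to 0.92 for CKM and SLC6A8. With orders exchanged only within sets of pairs it was 0.89, with an exact permutation p of 0.125, the smallest possible there. For CKM and CKB the correlation ran from 0.40 to 0.75, and for CKB and SLC6A8 from -0.11 without pair 2 to 0.54. The 1562 probes at an unadjusted p under 0.05 were 857 without the replicate block and 624 without dim probes, where fewer probes were tested, and 1443 to 1980 with 1 pair left out. Why the block moved the count was not tested. No probe passed the adjusted threshold in limma under any of these.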
